A study of Mus musculus with 2 samples.

Results

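The genes described here belong to families of transcription factors that act in gut and other epithelia. They were taken by their names on the array: the Sox, Klf, Gata, Fox (a to s), Hnf, Cdx, Elf and Onecut genes, with Spdef, Ehf, Pdx1, Tcf23 and Barx1, and without Sox2, Sox9 and Foxm1. They came to 98 genes with 165 probes, out of 27729 gene names on the array. Elf4 was not among them because the array file gives it an Ensembl identifier, and both of its probes were dark.

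The samples were sorted cells from the pylorus, the outlet of the stomach. The mice, 20 in number and of unstated age, were of the knock-in strain Lgr5-EGFP-ires-CreERT2. They carry green fluorescent protein (GFP) and the CreERT2 recombinase in the Lgr5 locus, so GFP marks cells that transcribe this stem cell gene, and both sorted populations come from such mice. Pooled tissue from 20 stomachs was split into cells with high GFP (GFPhigh) and cells with low GFP (GFPlow), and RNA of both was hybridised on 2 Agilent two-colour arrays with the dyes exchanged. GFPhigh was labelled with Cy3 on array 1 and with Cy5 on array 2. The design text of the series describes 1 RNA preparation per population, so there is no biological replicate and no test. The SD over the 2 arrays thus holds technical error only.

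Ratios below are log2 of GFPhigh over GFPlow after loess normalization within each array, given as the mean ± SD of the 2 arrays. A positive value is a higher level in GFPhigh, relative to an average gene of the same brightness. A gene was called when its ratio was at least 2-fold in one direction on each array. It was measured when the population with the higher level was well above background, a flag of the scanner software, on both arrays. On array 1, 28.6% of gene spots had this flag in GFPhigh and 25.1% in GFPlow. On array 2 the shares were 18.7% and 31.7%. Lgr5 itself had a log2 ratio of 2.33 on array 1 and 2.24 on array 2, which the sort requires. In pooled RNA, fewer cells of a type cannot be told apart from less RNA per cell.

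As background, these proteins bind DNA through a domain that defines each family. Klf proteins have zinc fingers that recognise GC-rich and CACCC-like sites, Fox proteins a forkhead domain, Elf, Ehf and Spdef an Ets domain, Sox proteins an HMG box, and Cdx, Pdx1, Barx1 and Onecut proteins a homeodomain. Foxa, Gata and Hnf4 factors help to set up endoderm, the germ layer of the gut lining. Cdx factors specify the intestine, Pdx1 the region around pylorus and pancreas, and Spdef and Klf4 the maturation of secretory and mucous cells.

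Of the 32 measured genes, 3 passed 2-fold on both arrays. Spdef was higher in GFPhigh, as were 1.76% of all measured genes, and Klf4 and Tcf23 were higher in GFPlow, as were 2.70% of all measured genes. The 250 bases before the start site of each are shown because these promoters lie at the genes that the comparison turns on. The sequences are those of RefSeq on GRCm38.p6, where 66 of the 98 genes had a window. They run 5′ to 3′ on the gene's strand, at chr17:27728952-27729201 on the minus strand for Spdef, chr4:55532476-55532725 on the minus strand for Klf4 and chr5:30968427-30968676 on the plus strand for Tcf23. Capitals mark matches to the motifs searched.
Spdef: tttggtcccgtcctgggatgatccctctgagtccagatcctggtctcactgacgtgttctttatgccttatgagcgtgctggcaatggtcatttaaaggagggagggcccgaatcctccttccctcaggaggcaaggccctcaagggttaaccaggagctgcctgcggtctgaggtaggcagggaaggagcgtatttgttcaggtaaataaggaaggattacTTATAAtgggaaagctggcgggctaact
Klf4: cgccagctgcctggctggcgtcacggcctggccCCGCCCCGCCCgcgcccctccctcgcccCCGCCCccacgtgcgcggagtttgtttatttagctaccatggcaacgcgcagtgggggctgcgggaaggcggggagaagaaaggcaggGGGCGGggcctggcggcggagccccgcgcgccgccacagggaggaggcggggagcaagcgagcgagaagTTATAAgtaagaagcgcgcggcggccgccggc
Tcf23: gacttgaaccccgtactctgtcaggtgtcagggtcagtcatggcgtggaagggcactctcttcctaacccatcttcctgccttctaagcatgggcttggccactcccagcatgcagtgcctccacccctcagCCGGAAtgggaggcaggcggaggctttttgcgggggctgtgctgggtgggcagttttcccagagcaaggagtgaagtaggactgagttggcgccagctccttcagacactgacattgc

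The motifs, each searched on both strands, were TATAA for the TATA box and GGGCGG for the GC box. Those of the families were CCACACCC for Klf proteins, AGATAA for Gata proteins, TGTTTAC for Fox proteins, CCGGAA for the Ets family and ACAAAG for the Sox family. TATAA and its reverse complement overlap each other in both genes that hold it. Spdef had a TATAA that begins 27 bases before the start, and Klf4 had one at 31 bases. Among all 32851 windows of this length, 22.8% held TATAA on either strand. Klf4 also held 4 GC boxes, a pair of them overlapping, in a window of 74.0% G and C, against a median of 52.4% over all windows, 32.7% of which held a GC box. Tcf23 held 1 Ets motif, which 12.0% of windows held, and its G and C content was 59.2%. The Klf, Gata, Fox and Sox motifs, held by 3.20%, 9.99%, 3.17% and 16.5% of windows, were not in these 3 windows as spelled here. A match describes the letters only and is not a binding site.

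Of the 98 genes, 32 were measured, or 32.7%, against 28.2% of all gene names on the array. A further 16 were well above background in some channels without meeting the rule, and 50 were dark in every channel. Detection differed by family. The Klf genes were measured in 10 of 17 cases and the Ets genes in 4 of 6, while the Fox genes gave 12 of 39, the Gata genes 2 of 6 and the Sox genes 2 of 17. None of the 3 Cdx or the 3 Onecut genes was measured. Both populations were above background on both arrays for 27 of the 32 genes.

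**Figure D1:**
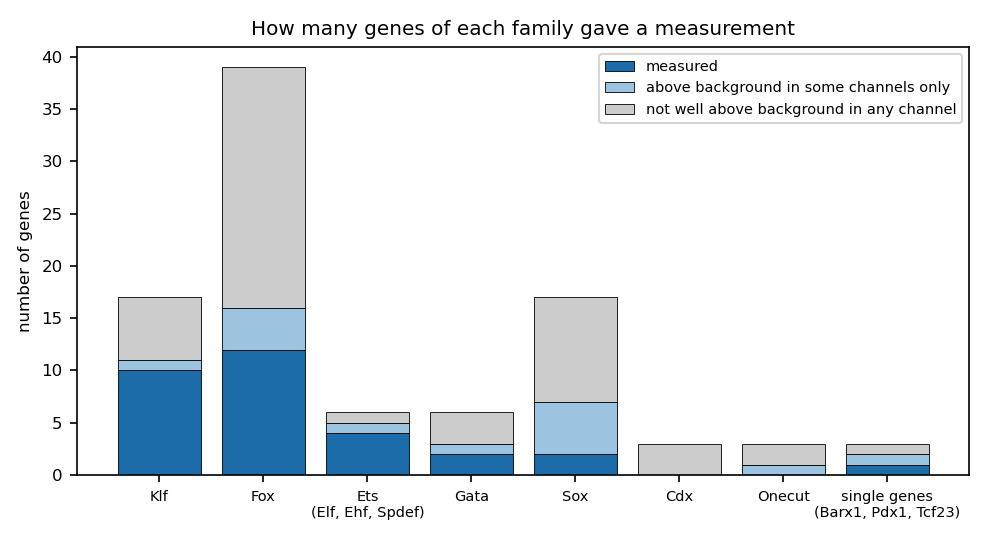
Number of genes (vertical axis) by family, without the Hnf genes, that were measured, above background in some channels only, or not well above background in any channel. The Fox family is the largest with 39 genes and 23 dark ones, while the Klf family has 10 measured genes of 17.

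Among the measured genes 1 was called higher in GFPhigh, or 3.12%, where 1.76% of all 7829 measured genes were called. In the other direction 2 were called, or 6.25%, against 2.70% of all genes. These shares rest on 3 genes in all and are no result about the families. The median ratio of the 32 genes was 0.04, beside -0.06 for all measured genes. The mean ratio lay within 0.5 of 0 for 22 genes, or 68.8%, against 72% of all genes. On both arrays 12 genes were above 0 and 9 were below 0, and 11 changed sign between arrays. The spread between arrays was like that of other genes, with a median SD of 0.23 against 0.27.

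**Figure D2:**
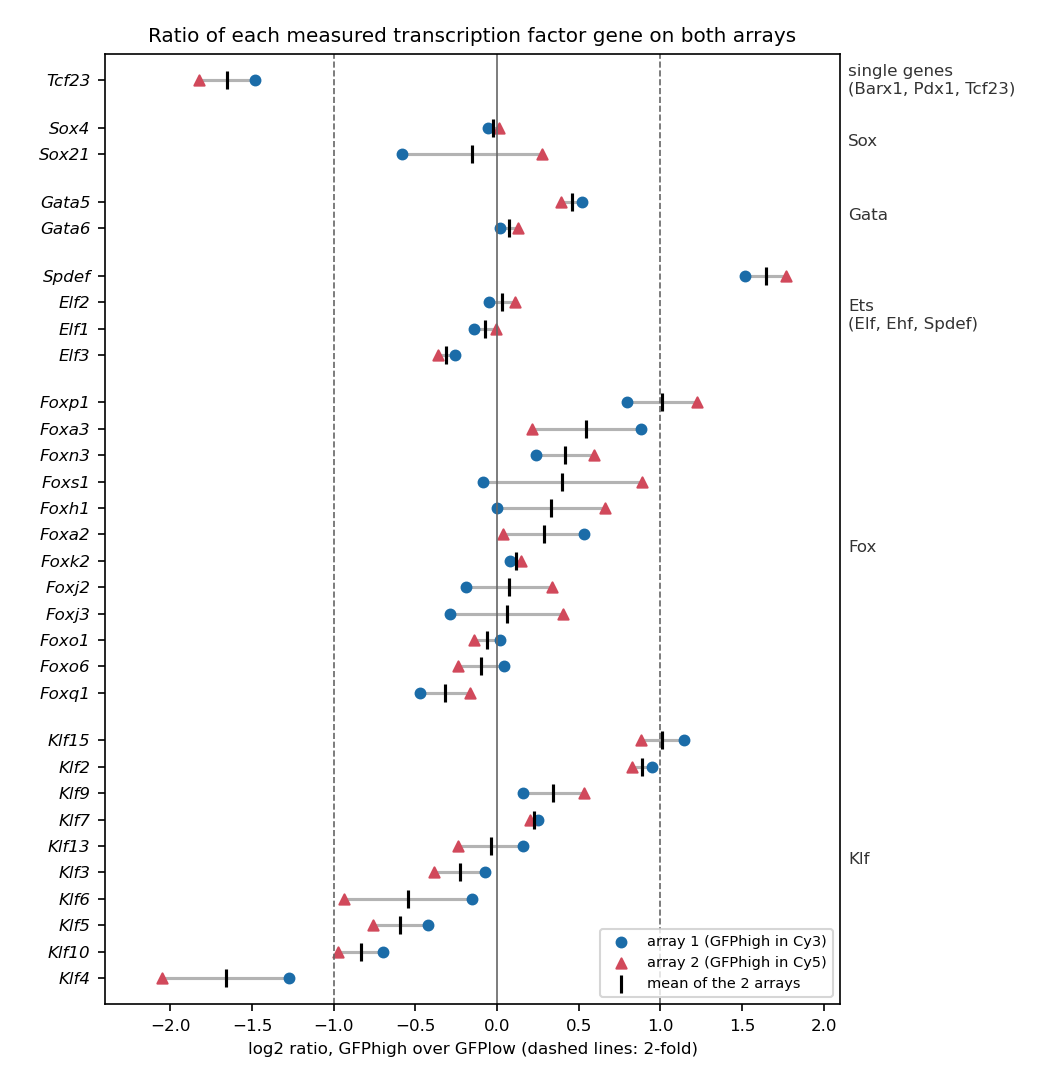
Log2 ratio of GFPhigh over GFPlow (horizontal axis) of the measured genes that the text names, ordered within families, on array 1 (circles) and array 2 (triangles), with their mean (vertical ticks). Spdef lies to the right of the 2-fold line on both arrays, and Klf4 and Tcf23 lie to the left of it on both.

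Centring changes where 0 lies. Of all measured genes, 138 were called higher in GFPhigh and 211 in GFPlow. When each array was instead centred on its median, the split was 10 against 215, and the median ratio of the measured genes, -0.06 as reported, became -0.49. Loess followed by centring on the spike-in RNA gave 23 against 1322 and a median ratio of -0.81. The direction of a gene given below is therefore its direction relative to the average gene. Over up to 11 ways of processing both arrays, 4 of the 32 genes (Spdef, Foxp1, Klf15 and Klf2) stayed above 0 in their mean ratio and 13 stayed below. The other 15 had a sign that depended on the processing. The 4 means above 0 hide opposite signs on the arrays. On array 2, median centring put Klf2 at -1.11, Foxp1 at -0.29 and Spdef at -0.07. Spike-in centring put Klf2 at -0.14 and Klf15 at -0.09 there. Among the 13 genes whose mean stayed below 0, Foxo1, Foxo6, Sox4 and Sox21 had opposite signs on the arrays in the reported values.

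**Figure D3:**
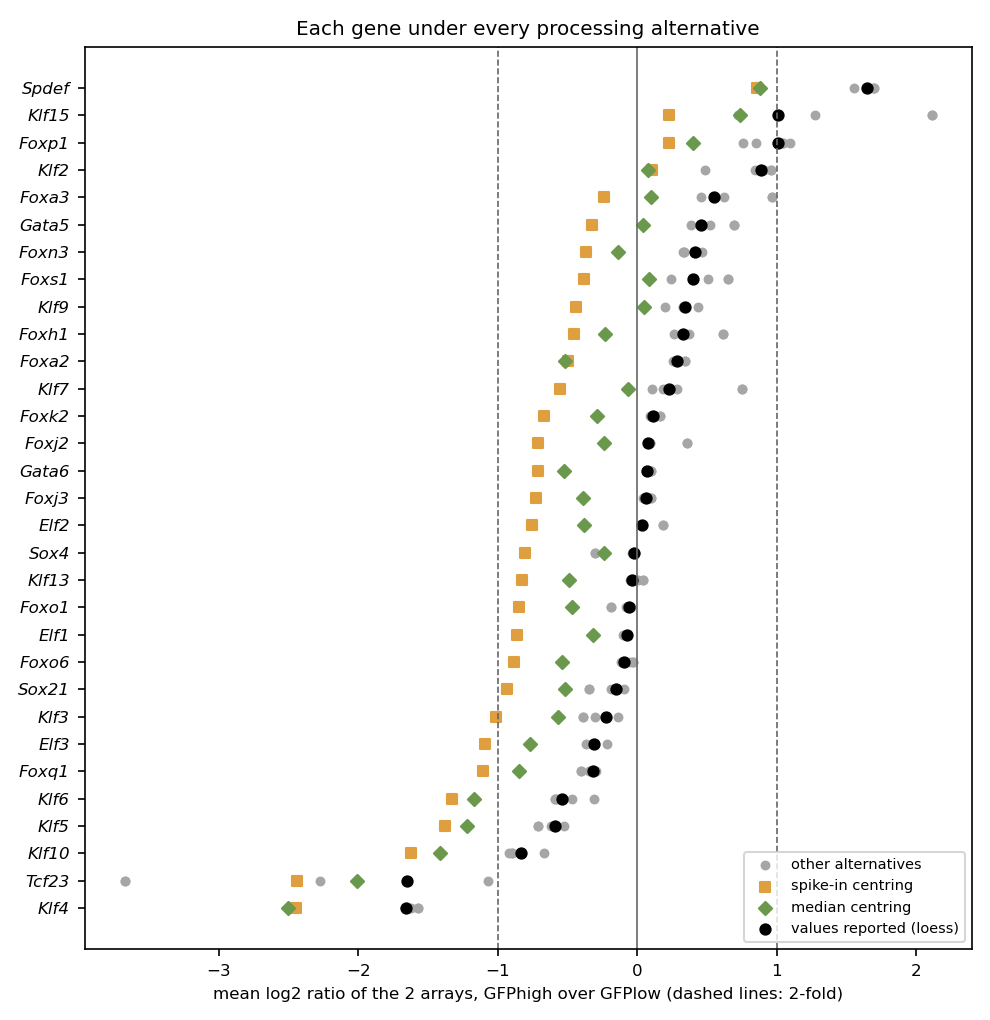
Mean log2 ratio of the 2 arrays (horizontal axis) of the measured genes that the text names, under the reported processing (black), spike-in centring (squares), median centring (diamonds) and the other alternatives (grey). Spike-in centring places Spdef at 0.86 and Klf4 at -2.45, and only 4 genes stay above 0 throughout.

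The Klf family held the widest range, from -1.66 to 1.01, and 5 of its 10 measured genes were below 0 on both arrays while 4 were above 0 on both. Its median was -0.13, and it stayed below 0 under every alternative. Klf4, a factor of differentiated surface and goblet cells, was the only called member. Its probe at mm9 chr4:55540833-55540892 had a net intensity, spot minus local background before normalization, of 3260 in GFPhigh and 6166 in GFPlow on array 1. On array 2 the values were 878 and 17466. GFPlow was thus the brighter population on both arrays, whichever dye it carried. Normalized log2 ratios were -1.27 and -2.05, which average -1.66 ± 0.55, or 3.16-fold higher in GFPlow. With median centring it was -0.97 on array 1 and -4.05 on array 2, and so missed 2-fold on array 1.

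Klf10, induced by TGF-beta, came next at -0.84 ± 0.20. It was at -0.70 on array 1 and at -0.98, just short of 2-fold, on array 2. Klf5, a factor of dividing gland and crypt cells, was at -0.59 ± 0.24. Klf6, an early response gene of injured tissue, was at -0.54 ± 0.56. Its arrays stood apart, at -0.15 and -0.94, and a further Klf6 probe was at -0.08 ± 0.21. Klf3 (-0.23 ± 0.22), a repressor, was above background in GFPhigh on 1 array only. Klf10 and Klf5 passed 2-fold on both arrays under spike-in centring alone, at -1.62 and -1.38. No member of this group other than Klf4 was called in the reported values.

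At the other end, Klf15, a regulator of amino acid and glucose metabolism, was at 1.01 ± 0.19, from 1.14 and 0.88 on the arrays. Its net intensities were 271 in GFPhigh against 76.9 in GFPlow on array 1 and 127 against 147 on array 2. The GFPlow channel was above background on 1 array only, so the size of this ratio is uncertain. With the scanner software's processed signals the arrays gave 2.33 and 1.89, and the gene was then called. Klf2, known from endothelium and quiescent lymphocytes, was at 0.89 ± 0.09, below 2-fold on both arrays. A second Klf2 probe, also above background in all channels, was at 0.09 ± 0.38, so its 2 probes disagree. Klf9, a glucocorticoid-induced factor, was at 0.34 ± 0.26, Klf7 at 0.23 ± 0.04 and Klf13 at -0.04 ± 0.28. A second Klf7 probe that met the rule was at 0.19 and -0.22 on the arrays, a mean of -0.02 ± 0.29. The signs of Klf9, Klf7 and Klf13 changed with the processing.

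**Figure D4:**
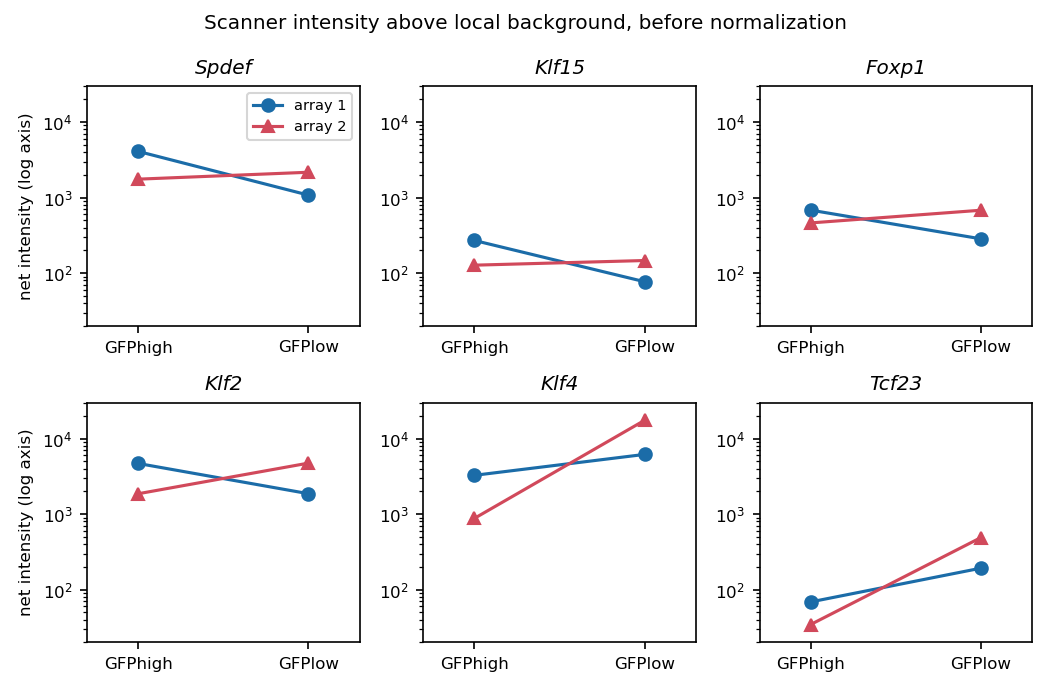
Net scanner intensity above local background before normalization (vertical axis, log scale) of 6 genes in GFPhigh and GFPlow on array 1 (circles) and array 2 (triangles). Klf4 and Tcf23 slope upward to GFPlow on both arrays, while Spdef, Klf15, Foxp1 and Klf2 slope down on array 1 and up on array 2, so their ratios rest on the normalization.

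The Ets genes held the single call towards GFPhigh. Spdef, which drives the maturation of secretory cells, had a probe at mm9 chr17:27851650-27851709. Its net intensity was 4086 in GFPhigh and 1078 in GFPlow on array 1, and 1753 and 2164 on array 2. Before normalization GFPhigh was the brighter population on array 1 only. After loess the log2 ratios were 1.52 and 1.77, which average 1.64 ± 0.18, or 3.13-fold higher in GFPhigh. With median centring it was 1.83 and -0.07, and with spike-in centring 0.92 and 0.80, so neither centring gives a call, although both means stay above 0. With the processed signals, which have their own dye correction, it was 1.65 and 1.74.

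The other Ets genes lay near 0. Elf3, an epithelium-specific factor, was at -0.31 ± 0.07, with -0.26 and -0.36 on the arrays, and stayed below 0 under every alternative. Elf2 was at 0.03 ± 0.11 and Elf1 at -0.07 ± 0.09. Elf1 was above background in GFPhigh on 1 array only. Ehf, an epithelial Ets factor close to Elf3, had 3 probes, of which none met the rule, since each was above background on at most 1 array per population. Elf5 was dark.

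None of the 12 measured Fox genes was called. Their median was 0.20, with a range from -0.32 to 1.01. It was above 0 with every processing except median centring (-0.24) and spike-in centring (-0.59). Foxp1, a repressor of the forkhead family, had the highest ratio at 1.01 ± 0.30, from 0.80 and 1.22 on the arrays. Its net intensities were 682 in GFPhigh and 284 in GFPlow on array 1, and 462 and 680 on array 2. Its second measured probe gave 1.08 and -0.06, a mean of 0.51 ± 0.81, so the probes agree on array 1 and not on array 2. With the processed signals Foxp1 was at 1.02 and 1.08 and passed 2-fold.

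Among the Foxa factors, which open chromatin in endoderm, Foxa3 was at 0.55 ± 0.47 (0.88 and 0.21) and Foxa2 at 0.29 ± 0.35 (0.53 and 0.04). Both means were below 0 with spike-in centring, and Foxa2 also with median centring. Foxa1 was above background in 1 of 4 channels and was not measured. Foxq1, which controls the mucin content of gastric surface cells, was at -0.32 ± 0.21, below 0 on both arrays and under every alternative. In the reported values the sign of Foxq1 differs from that of Foxa2 and Foxa3, with no call for any of them. With spike-in centring the means of all these genes were below 0.

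Foxn3 was at 0.41 ± 0.25 and Foxk2 at 0.11 ± 0.05, above 0 on both arrays. For Foxs1 (0.40 ± 0.69), a factor of perivascular cells, Foxh1 (0.33 ± 0.47), a Smad partner, Foxj2 (0.07 ± 0.37) and Foxj3 (0.06 ± 0.49), the arrays had opposite signs. The ratio was higher on array 2 for all 4. The insulin-responsive factors Foxo1 (-0.06 ± 0.11) and Foxo6 (-0.10 ± 0.20) also had opposite signs on the arrays. None of these 8 genes kept 1 sign over all alternatives, each array alone included.

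Of the Gata genes, Gata5 was at 0.46 ± 0.09 (0.52 and 0.39) and Gata6 at 0.07 ± 0.07. Both are factors of gut epithelium, and with spike-in centring both means were below 0, at -0.33 and -0.71. Gata4 was above background in 1 channel only, and Gata1, Gata2 and Gata3, which act in blood and immune cells, were dark. Hnf4a, a nuclear receptor of gut and liver, had 3 probes, of which 1 was above background in 1 channel and none gave a ratio. Its relative Hnf4g was dark.

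Sox genes were the least often measured of the families with any measured member. Sox4, known from progenitor cells, was at -0.02 ± 0.05 and was above background in GFPhigh on 1 array. Sox21 was at -0.58 and 0.28 on the arrays, a mean of -0.15 ± 0.61. Of the Sox genes left out by rule, Sox9 was at 1.36 ± 0.06 and called higher in GFPhigh. Sox2, a foregut factor, was above background on 1 array per population and was not measured. Sox12, Sox14, Sox15, Sox10 and Sox17 were above background in some channels only.

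Tcf23, a basic helix-loop-helix protein, was measured in GFPlow alone. Its probe at mm9 chr5:31279066-31279125 had net intensities of 68.7 in GFPhigh and 192 in GFPlow on array 1, and 34.5 and 488 on array 2. In GFPhigh the probe did not clear the background flag on either array. The log2 ratio was -1.48 and -1.82, a mean of -1.65 ± 0.24. With GFPhigh raised to the lowest level at which any probe passed the background flag, GFPlow was 2.86-fold higher as processed here. This is not a lower bound. That lowest log2 level in GFPhigh was 6.66 on array 1 and 6.71 on array 2. Foxm1, with a mean GFPhigh level of 6.78, did not pass the flag there on either array. Other processing gave other sizes. A further Tcf23 probe was above background in 1 channel, at -0.71 ± 0.46. The ratio ran from -1.07 without background correction to -3.67 with the deposited value table, since GFPhigh lies at the background. Pdx1 was above background in 1 channel per population at -0.06 ± 0.34 and did not meet the rule. Barx1, a factor of stomach mesenchyme, was dark.

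**Figure D5:**
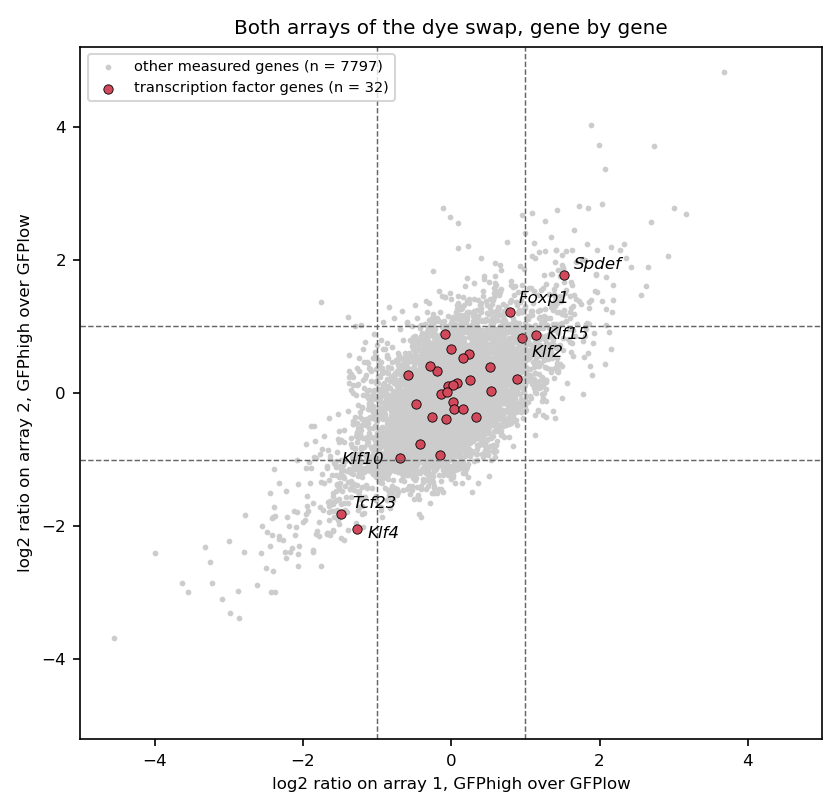
Log2 ratio of GFPhigh over GFPlow on array 1 (horizontal axis) against array 2 (vertical axis) for all measured genes (grey) and the 32 transcription factor genes (red), with dashed lines at 2-fold. Spdef lies in the upper right corner beyond both lines and Klf4 and Tcf23 in the lower left, while most of the 32 genes lie near the centre.

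The remaining genes gave no level. The dark ones included, in the Fox family, Foxb1, Foxb2, Foxc1, Foxc2, Foxd1, Foxd2, Foxd3, Foxd4, Foxe1, Foxf1a (now Foxf1), Foxf2, Foxi1, Foxi2, Foxj1, Foxl2, Foxn1, Foxn4, Foxo3, Foxo4, Foxp2, Foxp3 and Foxp4. In the Klf family they were Klf1, Klf8, Klf12, Klf14, Klf16 and Klf17. In the Sox family they were Sox1, Sox5, Sox6, Sox7, Sox8, Sox11, Sox13, Sox18, Sox19 and Sox30. Cdx1, Cdx2, Cdx4, Onecut1 and Onecut2 were dark as well. Foxe3, Foxk1, Foxn2, Klf11 and Onecut3 were above background in some channels only. A dark probe sets no level of 0, since probes differ in brightness. With no filter on dim probes, the median ratio over all 98 genes was 0.05.

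Markers of gastric cell types also differed between the populations. Of 7 measured genes on the surface mucous (pit) cell list, 4 were called higher in GFPlow, as was Klf4, and 1, Gkn3, in GFPhigh. The median of this list was -1.85. Of 7 measured genes on the gland mucous cell list, 4 were called higher in GFPhigh, as was Spdef, and 1, Spink4, in GFPlow, with a median of 1.82. The lists are not exclusive to the named cell types. Gkn3 is known from gland cells, and Cblif and Pgc of the gland list are also chief cell genes. The median of the 7 measured enteroendocrine markers was -1.46, and 5 of them were called higher in GFPlow. In GFPhigh, Gkn1 and Psca of the pit list and Tph1 and Neurog3 of the enteroendocrine list were not well above background on either array. They were measured through GFPlow alone, so the counts and medians of these lists lean towards GFPlow by the filter. The part of these cell types in the ratios of Spdef, Klf4 and Tcf23 was not tested. All 8 simple epithelium markers were measured, with a median of -0.16 and 2 called higher in GFPlow.

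Markers of cells outside the epithelium were mostly dark. Of 10 endothelial markers, 2 were measured and 6, among them Pecam1, Cdh5 and Kdr, were dark in every channel, beside the ratio of Klf2. The summed net intensity of the endothelial list was 854 in GFPhigh and 631 in GFPlow on array 1, and 580 and 1143 on array 2. Dark probes add a small amount to such sums. Of 12 leukocyte markers, 11 were dark, including Ptprc. Of 9 fibroblast markers 8 were dark, 3 of 6 smooth muscle markers and 4 of 7 glia and nerve markers were dark, and no erythroid marker was measured. Squamous epithelium markers had 3 of 8 measured and 0 called. Of the intestinal epithelium markers 4 of 10 were measured, with 1 called higher in GFPhigh and 2 in GFPlow, and of the tuft cell markers 3 of 9, with 1 called higher in GFPlow. Clca1 of the intestinal list and Avil and Alox5 of the tuft list were also measured through GFPlow alone.

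Other transcription factor genes of the gut, outside these families, were measured in 28 of 53 cases. Their median was 0.13, with 1 called higher in GFPhigh and 2 in GFPlow. The first was Creb3l4, a factor of the secretory pathway, at 1.84 ± 0.41. The others were Pparg, a lipid-sensing nuclear receptor, at -1.53 ± 0.26, and Myb, a factor of dividing progenitors, at -1.37 ± 0.27. Both were above background in GFPhigh on 1 array only. Xbp1, which expands the secretory machinery, was at 1.16 ± 0.88, with 1.79 and 0.54, and was not called. Of the 10 secretory genes on which Spdef is known to act in mucous cells, 8 were measured with a median of 0.86, and 1 of them, Creb3l4, was called. Tff2 was at 1.82 ± 1.22, Agr2 at 1.13 ± 1.47 and Muc6 at 1.06 ± 0.28, each under 2-fold on 1 array. The remaining measured genes of this list, named after their values were seen, were Ern2 at 0.66, Creb3l1 at 0.45, Galnt12 at 0.31 and Gcnt3 at -0.13. An effect of Spdef on these genes was not tested. Tff2 and Muc6 are also gland mucous markers, so these lists overlap.

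Klf4, Klf6 and Klf10 are known as genes that respond early to stimuli, as the immediate early genes do. Of 10 listed immediate early genes, 7 were measured and 0 were called, with a median of 0.21. Jund was at 0.61 ± 0.59, Ier2 at 0.44 ± 0.27, Junb at 0.38 ± 0.89 and Dusp1 at 0.21 ± 0.15. The remaining 3, named after their values were seen, were Fos at 0.07, Jun at 0.06 and Atf3 at 0.04, and Junb, Fos and Atf3 had opposite signs on the arrays. Egr1, an immediate early gene listed with the Sp and Egr genes, was at -0.42 ± 0.24, below 0 on both arrays. The part of such a response in the ratios of Klf4, Klf6 and Klf10 was not tested.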

How the data were processed

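Gene expression was measured on 2 Agilent arrays carrying the same pair of RNA preparations. Per the labels, 150 ng of total RNA was labelled by linear amplification. The authors deposited scanner output with mean spot intensity and local background intensity per channel, and intensities processed by Feature Extraction. The version is 10.5.1.1 per the file headers and 9.5.3 per the submitters' processing notes. A deposited value table holds log10 ratios. It equals the scanner's log10 ratios turned to GFPhigh over GFPlow within 0.0050, and is empty where these are 0.

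Here, limma 3.58.1 in R 4.3.3 corrected background (normexp, offset 50) and normalized by loess within arrays, with control spots at weight 0. Spots flagged as outliers were dropped and spots of a probe averaged. Of several probes that met the rule, the one of highest average signal stood for the gene. The transcription factor genes keep the array's own names. Other genes were named through RefSeq (GRCm38.p6, names only), and 8082 of 41174 probes kept the name in the file. Probe coordinates are mm9, per the file headers, and no gene models of that build were used, so exon or UTR positions of probes are not given. Offset and normexp pull dim ratios towards 0. Both arrays lie on the same slide with the same scan time, which leaves no batch to compare.

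The genes and marker lists were chosen with earlier results of these data known. Measured members are named with values and the others by name, apart from a few that are not reported here. Of each related list, up to 4 genes with the largest absolute ratios are named. For the immediate early genes and the secretory genes tied to Spdef, all measured genes are named. On simulated arrays (10227 genes), a 3-fold difference was called for 76% of genes raised in GFPhigh and 80% raised in GFPlow, a 5-fold one for 100%. Each share rests on 50 genes drawn from the brighter ones, with a noise level that was set and not fitted to these arrays. The shares therefore do not hold for dim genes. Alternatives covered background correction, signals, centring, filter, probe rule, flags, threshold and each array alone.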

Additional observations from a re-analysis of the deposited data

How the results depend on the processing

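No paired analysis was possible because the 2 arrays carry the same RNA preparations and no test was run. The number called higher in GFPhigh among the transcription factor genes (1) was 2 with a normexp offset of 16 (Klf15 added), 3 with the processed signals or the deposited value table (Klf15 and Foxp1 added), 0 with median or spike-in centring, 4 at 1.5-fold and 0 at 3-fold. The number higher in GFPlow (2) was 1 with median centring or with both populations required above background, 5 with spike-in centring (Klf10, Klf5 and Foxq1 added) and 0 at 3-fold. The median of 0.04 was -0.35 with median centring and -0.72 with spike-in centring. On 1 array alone, 2 genes were called in either direction on each array. For all genes, the 138 became 352 with the processed signals or the value table, 10 with median centring, 23 with spike-in centring, 438 at 1.5-fold, 32 at 3-fold, and 347 to 370 on 1 array alone. The 211 became 511 and 507 with the processed signals and the value table, 1322 with spike-in centring, 139 with both populations required, 587 at 1.5-fold, 72 at 3-fold, and 397 to 496 on 1 array alone. None of the 3 called genes changed the sign of its mean ratio under any alternative. Among single genes, 84 of 312 alternative values moved by more than 1 SD of the arrays, 59 of them under the centring alternatives. Weak signal in GFPhigh on array 2 limits the dim genes.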

Other observations

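Relatives of the families outside the rule were mostly near the average gene. Of 19 other Ets genes on the array, 7 were measured and 0 were called. Etv5, a target of ERK signalling, had the largest ratio at 0.64 on each array, followed by Elk3 at 0.55 ± 0.17, Etv4 at 0.10 ± 0.06 and Gabpa at -0.08 ± 0.10. Etv5 cleared the background flag in GFPlow on 1 array, and Gabpa in GFPhigh on 1 array. Of 13 Sp and Egr genes, zinc finger factors close to the Klf proteins, 5 were measured and 1 was called. Sp5, a Wnt target, was at 1.78 ± 0.41, while Egr1 was at -0.42 ± 0.24, Sp3 at -0.41 ± 0.15 and Egr2 at 0.29 ± 0.33.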
